A study of Mus musculus with 6 samples.

Results

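The genes described here are transcription factors that mark the intermediate progenitor domains of the developing spinal cord, between the dorsal cord and the ventral domains next to the floor plate. They were Pax3, Pax7, Dbx1, Dbx2, Prdm12, Irx5, Irx3, Pax6 and Sp8, chosen by gene symbol. A probe set annotated to that single symbol was found for 8 of the 9, with 1 probe set each, among 19920 genes measured in all. Prdm12, a factor of the p1 progenitor domain, had no such probe set and was not analysed here. RNA came from mouse cervical spinal cord at embryonic day 11.5, dissected free of dorsal cord and floor plate, and was measured on 6 whole-transcript arrays. The groups were Nkx2.9 knockout (3 arrays, lettered A, B and C) and wild type (3 arrays, with the same letters). The labels gave no strain, sex or allele and did not say whether an array held 1 embryo or a pool, so the p-values concern the spread among these arrays alone, and their small number limits the precision.

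Progenitors along the dorsoventral axis of the neural tube are assigned to domains by the combination of homeodomain and related factors they express. Sonic hedgehog from the floor plate and notochord represses one class of these factors (class I, among them Pax7, Dbx1, Dbx2, Irx3 and Pax6) and induces another (class II, among them Nkx2-2, Nkx6-1 and Olig2), and pairs of the opposing classes repress each other at a shared boundary. Class I factors are therefore ordered by how far ventrally they reach, from Pax7, which stops above the p0 domain, to Pax6, which reaches the border of the most ventral progenitors, where Nkx2-2 and Nkx2-9 are expressed. The genes are taken up below in that order, from dorsal to ventral.

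Each deposited value was a log2 expression value less the probe set's own median across the 6 arrays. Values can therefore be compared between arrays for a gene but not between genes, and the level of a gene, or whether it stood above background, could not be seen. For the same reason the labelled tissue could not be checked against its markers. Nkx2-9, the targeted gene, had values of -0.07, 0.26 and 0.11 in the arrays labelled knockout and of -0.21, 0.07 and -0.11 in the wild-type arrays (log2 values for A, B and C). It was not lower under the knockout label, and where its probes lie relative to the deletion was not known, so the arrays are called labelled knockout and every direction rests on those labels. Single arrays stood apart in other genes. The median of 10 mesenchyme genes was 1.72 in labelled knockout C and between -0.09 and 0.25 on the other 5 arrays. The median of 15 cell cycle genes was -0.55 in wild-type B and between -0.09 and 0.26 elsewhere. Xist, the X-inactivation RNA, was high on 2 arrays, both labelled knockout.

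None of the 8 genes passed an adjusted p of 0.05 in limma, and neither did any probe set of the table (0.0% of 28815 probe sets, with 0.812 as the smallest adjusted p). At an unadjusted p under 0.05 there were 2, Irx3 and Irx5, both higher in the arrays labelled knockout. Of all probe sets tested, 5.57% had an unadjusted p under 0.05, and 3.07% were on the higher side. The arrays labelled knockout were higher for 5 of the 8 genes and lower for 3, and the median log2 difference was 0.09, against 0.01 over all probe sets, of which 55.0% were higher. The 3 lower ones, Pax3, Pax7 and Dbx2, were at -0.02, -0.02 and -0.06. The groups did not overlap for 1 of the 8, Irx3, while they did not overlap for 10.9% of all complete probe sets (6.68% on the side of Irx3). In RNA from whole tissue, fewer cells of a domain and less RNA per cell cannot be told apart.

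**Figure D1:**
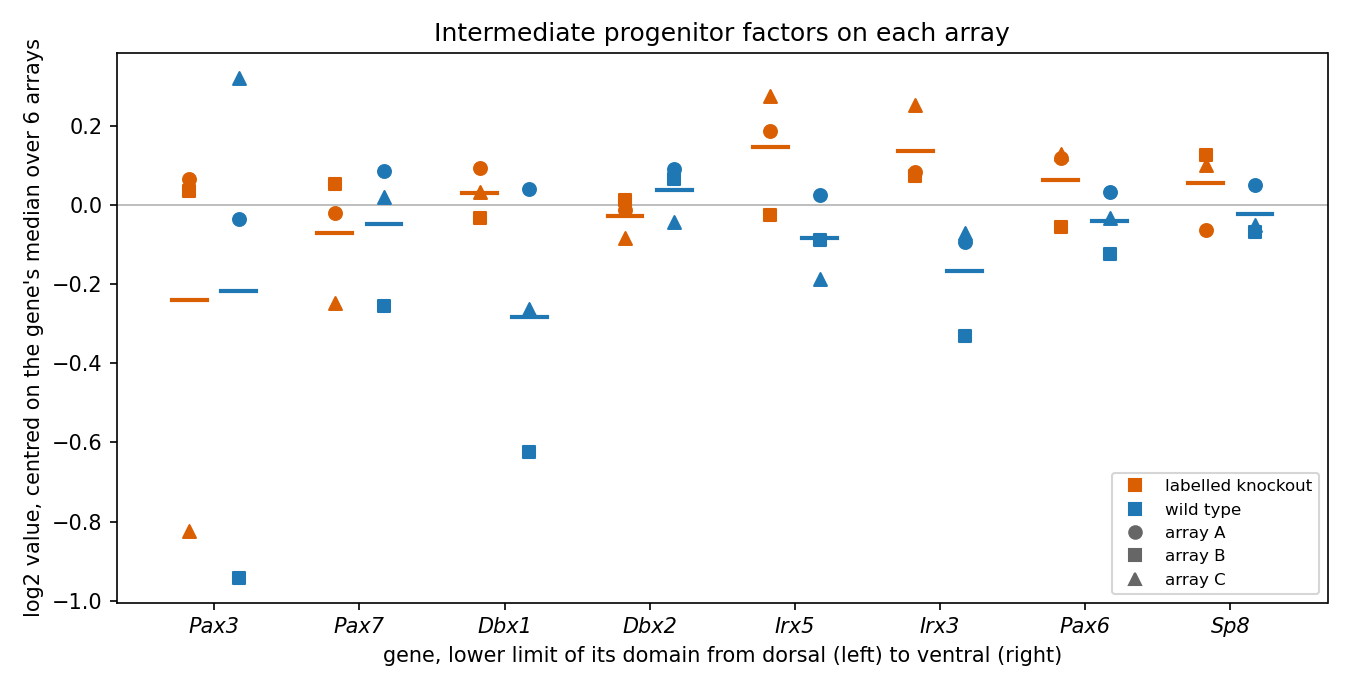
Log2 value of each gene on each array (y axis, centred on the gene's median over the 6 arrays), with the 3 arrays labelled knockout left of the 3 wild-type arrays. Marker shape gives the array letter and the bar the group mean. Pax3 is low on labelled knockout C (-0.82) and wild-type B (-0.94), and Irx3 is the gene whose groups do not overlap.

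Pax3 encodes a paired-box factor of dorsal neural progenitors that is also made in neural crest and in the dermomyotome. Its values were 0.07, 0.04 and -0.82 in labelled knockout A, B and C, against -0.04, -0.94 and 0.32 in the 3 wild-type arrays. A single array was far below the other arrays in each group, and the groups overlapped over nearly their whole range. The group means were -0.24 ± 0.51 in the arrays labelled knockout and -0.22 ± 0.65 in wild-type arrays (SD, n = 3 each). The difference was -0.02 on the log2 scale (95% interval -0.94 to 0.89, adjusted p = 0.996 in limma), an interval whose ends are 1.91-fold lower and 1.85-fold higher in the arrays labelled knockout. The spread of Pax3 within groups (pooled SD 0.58) was larger than that of 99.7% of all probe sets, whose median was 0.083.

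Pax7, a close relative of Pax3 that is confined in the neural tube to dorsal progenitors, followed the same arrays with a smaller spread. It stood at -0.02, 0.05 and -0.25 in labelled knockout A, B and C, against 0.09, -0.26 and 0.02 in the wild type. The difference was -0.02 (95% interval -0.30 to 0.26, adjusted p = 0.983 in limma). The lowest values of Pax7, as those of Pax3, were those of labelled knockout C and wild-type B.

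Other dorsal progenitor factors were read on the same arrays, in a list of 14 genes of which 12 were measured. In 6 of the 12 (Msx2, Msx3, Gsx1, Gsx2, Gbx2 and Ptf1a) labelled knockout C and wild-type B held the lowest values, which was so for 4.65% of all complete probe sets. The arrays were picked after the values of Pax3 had been seen, so the count is a description. Msx3, a homeobox gene of the dorsal neural tube, was at 0.12, 0.04 and -1.61 in the arrays labelled knockout and at -0.04, -1.06 and 0.63 in the wild type. Msx2 was at -0.06, 0.09 and -0.48 in the arrays labelled knockout and at 0.06, -0.55 and 0.50 in the wild type. In both genes, as in Pax3, wild-type C was the highest array and the 2 low arrays came 1 from each group. Olig3, a factor of the most dorsal progenitors, did not share the low value of wild-type B: it was at -0.03, -0.02 and -0.59 in the arrays labelled knockout, against 0.12, 0.48 and 0.02 in the wild type. Zic1 and Zic2, of the same list, went the other way on labelled knockout C, their highest array, at 0.83 and 0.87. On wild-type B they stood at -0.18 and 0.33. By group, the median difference of the dorsal list was -0.03, with 6 genes higher and 6 lower, none past the adjusted threshold. The lowest p was that of Neurog1, a proneural gene, at 0.16 (SE 0.06, unadjusted p = 0.0276, adjusted p = 0.812 in limma). The dorsal cord had been cut away before RNA was isolated, and the part of differences in that dissection in the values of Pax3 and Pax7 was not tested.

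The genes whose profile was most like that of Pax3 over the 6 arrays, among 17978 protein-coding genes with a name, were H4c3 (Pearson r = 0.985), Doxl1 (0.981) and Ttll12 (0.980). H4c3, a histone gene, spanned -0.37 to 0.15 and had, like Pax3, its lowest values in labelled knockout C (-0.37) and wild-type B (-0.33). Doxl1 and Ttll12 shared the shape but varied little, with lowest values of -0.06 and -0.10. They were picked as the highest coefficients among all candidates over only 6 arrays, so no p is given.

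**Figure D2:**
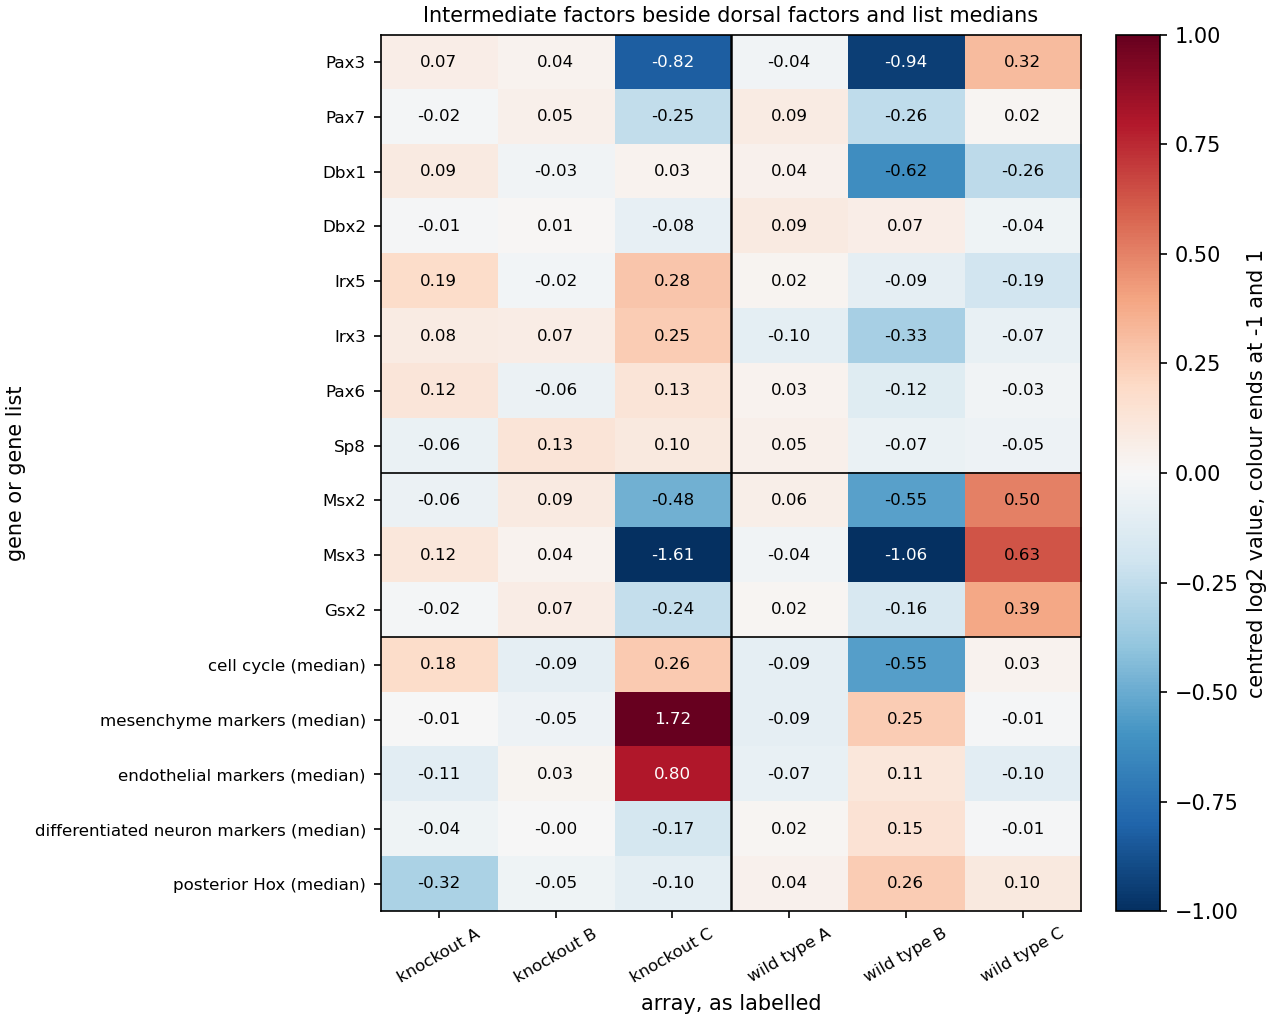
Log2 values, centred per gene, of the 8 genes (top), of 3 dorsal factors and of the medians of 5 gene lists (bottom) on each array, with the arrays labelled knockout left of the wild type. The 3 dorsal factors were picked from those lowest on labelled knockout C and wild-type B. Red is above and blue below the gene's median, and the colour ends at -1 and 1. Pax3, Pax7, Msx2, Msx3 and Gsx2 are low on labelled knockout C and wild-type B, the cell cycle median is low on wild-type B (-0.55) and the mesenchyme median is high on labelled knockout C (1.72).

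Dbx1 encodes a homeodomain factor of the p0 domain, whose progeny include the V0 commissural interneurons. It had the largest difference of the 8 genes. Its values were 0.09, -0.03 and 0.03 in labelled knockout A, B and C, against 0.04, -0.62 and -0.26 in the 3 wild-type arrays. The arrays labelled knockout lay close together, while 2 of the 3 wild-type arrays were below all of them and wild-type A was among them. The means were 0.03 ± 0.06 in the arrays labelled knockout and -0.28 ± 0.33 in wild-type arrays (SD, n = 3 each). The log2 difference was 0.31 (SE 0.16, 95% interval -0.07 to 0.70, 1.24-fold higher in the arrays labelled knockout), and it did not pass (unadjusted p = 0.0937, adjusted p = 0.812 in limma). The exact two-sided permutation test gave p = 0.3; with 3 arrays a group its floor is 0.1. Without wild-type B the difference was 0.14, and without wild-type A 0.47 (unadjusted p = 0.00861, adjusted p = 0.930 in limma).

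On wild-type B the cell cycle median was also at its lowest, as given above; the part of that in the value of Dbx1 was not tested. The genes most like Dbx1 over the 6 arrays were Anks3 (r = 0.994), Rsbn1l (0.992) and Smarcc1, a subunit of SWI/SNF chromatin remodelling complexes (0.989). Each of them was lowest on wild-type B, at -0.21, -0.19 and -0.09. They were found by the same search as for Pax3, and again no p is given.

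The stretch of 250 bases before the start of Dbx1 is shown because this gene and Irx3 had the largest differences. The sequence is from RefSeq, build GRCm38.p6, minus strand, at chr7:49636836-49637085.
Dbx1 upstream: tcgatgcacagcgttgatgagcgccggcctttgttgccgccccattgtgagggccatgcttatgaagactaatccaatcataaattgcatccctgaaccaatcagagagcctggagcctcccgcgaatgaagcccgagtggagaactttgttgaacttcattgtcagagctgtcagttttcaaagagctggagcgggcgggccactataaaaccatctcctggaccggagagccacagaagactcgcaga
It holds none of 3 short motifs searched on both strands, CAAGTG (bound by NK2-class homeodomain proteins such as Nkx2-9), TAATTA (a general homeodomain core) and ACCACCC (part of the Gli motif). Of 32851 promoter windows of that length, 11.6% held CAAGTG, 4.84% TAATTA and 3.92% ACCACCC.

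Dbx2, a relative of Dbx1 that reaches further ventrally, into the p1 domain, was the least variable of the 8 genes. It stood at -0.01, 0.01 and -0.08 in labelled knockout A, B and C, against 0.09, 0.07 and -0.04 in the wild type. The values of the groups overlapped, and the whole range over the 6 arrays was 0.17. The difference was -0.06 (SE 0.05, 95% interval -0.20 to 0.07, adjusted p = 0.840 in limma), an interval whose ends are 1.15-fold lower and 1.05-fold higher in the arrays labelled knockout. The 250 bases before its start held none of the 3 motifs.

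Progeny of these domains were read from a list of 12 genes, of which 10 were measured. The arrays labelled knockout were higher for 2 of these and lower for 8; the median was -0.06 and none past the adjusted threshold. Evx1, which marks V0 interneurons and depends on Dbx1, was at -0.09, -0.04 and 0.01 in the arrays labelled knockout, against 0.05, -0.01 and 0.07 in the wild type (difference -0.08, SE 0.05). Its paralog Evx2 had the opposite sign, at 0.09, 0.06 and 0.05 against -0.30, -0.05 and -0.08 in the wild type (difference 0.21, SE 0.07, unadjusted p = 0.0264, adjusted p = 0.812 in limma). The groups did not overlap for 3 of the 10 genes, Evx2 on the higher side and Pax2 and Lhx1 on the lower, against 10.9% of all complete probe sets. En1, the marker of V1 interneurons, which arise from the p1 domain, was at -0.13, -0.04 and 0.04 in the arrays labelled knockout, against 0.12, 0.12 and -0.08 in the wild type (difference -0.09, SE 0.08). Pax2, made in several classes of inhibitory interneurons, was at -0.16, -0.0044 and -0.59 in the arrays labelled knockout and at 0.05, 0.0044 and 0.17 in the wild type (difference -0.33, SE 0.15, unadjusted p = 0.0680, adjusted p = 0.812 in limma). Labelled knockout C was the lowest array for Pax2; the median of 12 genes of differentiated neurons was lowest there too, at -0.17, with 11 of the 12 lower in the arrays labelled knockout.

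Irx3 and Irx5 are neighbouring genes of the Iroquois family of homeodomain factors, in the same cluster on chromosome 8. Irx3 reaches ventrally to the border of the motor neuron progenitor domain, where it and Olig2 repress each other. Its values were 0.08, 0.07 and 0.25 in labelled knockout A, B and C, against -0.10, -0.33 and -0.07 in the 3 wild-type arrays. All 3 arrays labelled knockout were above all 3 wild-type arrays, with labelled knockout C the highest and wild-type B the lowest. The means were 0.14 ± 0.10 in the arrays labelled knockout and -0.17 ± 0.14 in wild-type arrays (SD, n = 3 each). The log2 difference was 0.30 (SE 0.09, 95% interval 0.09 to 0.51, 1.23-fold higher), with an unadjusted p of 0.0128 and an adjusted p of 0.812 in limma. The exact two-sided permutation test gave p = 0.1, which is its floor at this number of arrays.

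Irx3 was at 0.22 without wild-type B and at 0.24 without labelled knockout C. Without both arrays the difference was 0.16, with an unadjusted p of 0.0346 and an adjusted p of 0.9999 in limma. When the 2 arrays of high Xist, both labelled knockout, were given their own term, the difference was 0.25. That term left labelled knockout A alone against the wild-type arrays, so no p is given. Mesenchyme genes were high on labelled knockout C, where Irx3 was highest, and cell cycle genes low on wild-type B, where it was lowest. The cell cycle median was also at its highest on labelled knockout C, at 0.26, and its part in the values of Irx3 was not tested. Iroquois genes are also made outside the neural tube, and the part of other tissue in these values was not tested.

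Irx5 stood at 0.19, -0.02 and 0.28 in labelled knockout A, B and C, against 0.02, -0.09 and -0.19 in the 3 wild-type arrays. Labelled knockout C was again the highest array, but the lowest was wild-type C, and labelled knockout B lay among the wild type. The log2 difference was 0.23 (SE 0.09, 95% interval 0.00 to 0.45, 1.17-fold higher; unadjusted p = 0.0466, adjusted p = 0.812 in limma). Without labelled knockout B it was 0.31 (unadjusted p = 0.00849, adjusted p = 0.360), and without labelled knockout C 0.16 (unadjusted p = 0.131, adjusted p = 0.977). Irx6, the third gene of that cluster, was at 0.11 (SE 0.08). Irx1, Irx2 and Irx4, the genes of the other Iroquois cluster, were at 0.03, -0.13 and -0.04, so that Irx3 and Irx5 had the largest differences of the 6 family members; all 6 differences were under 0.31 and none passed the adjusted threshold.

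The 250 bases before the start of Irx3 are shown for the same reason as those of Dbx1 (RefSeq, GRCm38.p6, minus strand, chr8:91801655-91801904).
Irx3 upstream: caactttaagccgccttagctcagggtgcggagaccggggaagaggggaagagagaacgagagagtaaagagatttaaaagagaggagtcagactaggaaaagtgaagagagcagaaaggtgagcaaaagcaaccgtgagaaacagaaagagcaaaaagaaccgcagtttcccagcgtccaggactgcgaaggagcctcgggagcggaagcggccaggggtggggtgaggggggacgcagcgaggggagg
This window held none of the 3 motifs either. No promoter window for Irx5 or Pax3 was at hand.

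**Figure D3:**
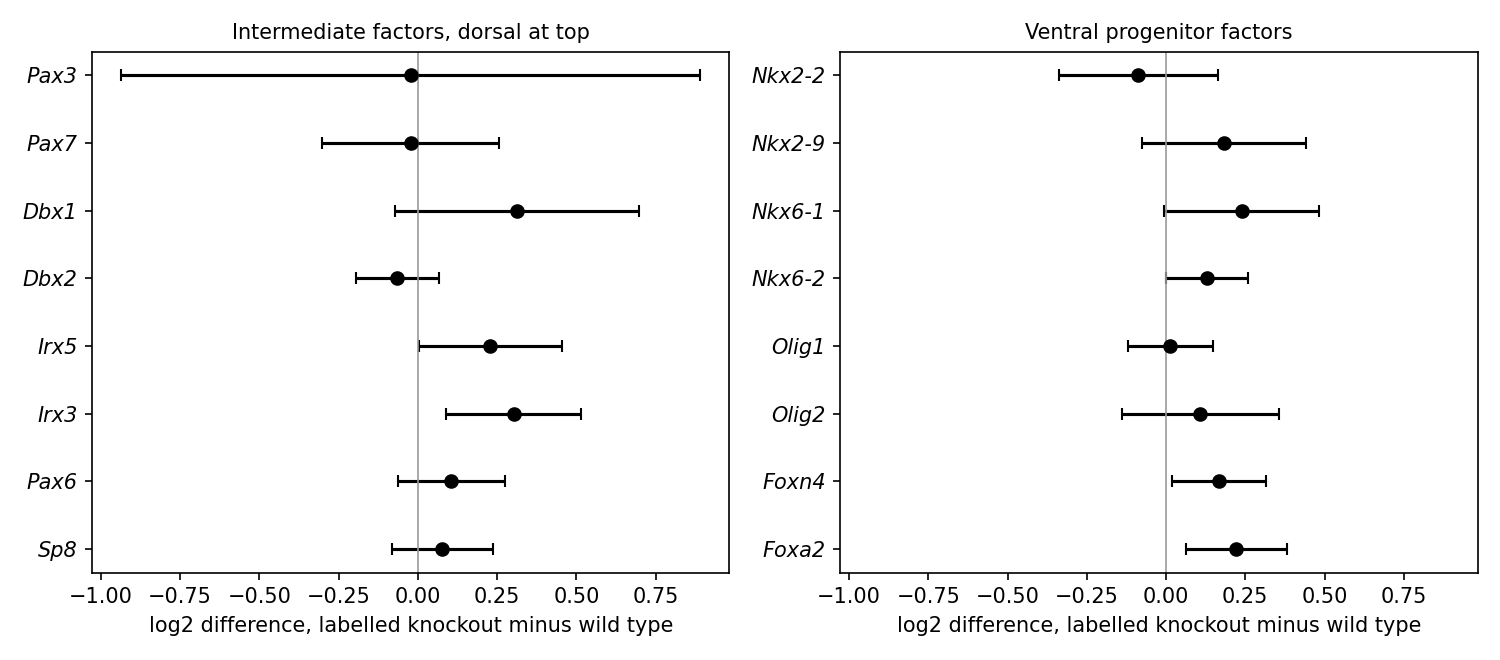
Log2 difference, labelled knockout minus wild type, with 95% intervals from limma, for the intermediate factors from dorsal (top) to ventral (left panel) and for ventral progenitor factors (right panel). The intervals of Irx3 and Irx5 lie above 0 before adjustment over the table, and that of Pax3 runs from -0.94 to 0.89.

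Pax6, a paired-box and homeodomain factor whose lower limit is set against Nkx2-2, was at 0.12, -0.06 and 0.13 in labelled knockout A, B and C, against 0.03, -0.12 and -0.03 in the wild type. Labelled knockout A and C were above all wild-type arrays and labelled knockout B was among them. The difference was 0.10 (SE 0.07, 95% interval -0.06 to 0.27, adjusted p = 0.812 in limma), an interval whose ends are 1.05-fold lower and 1.21-fold higher in the arrays labelled knockout. It was 0.06 without wild-type B and 0.16 without labelled knockout B (unadjusted p = 0.0432, adjusted p = 0.482 in limma).

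Sp8, a zinc-finger factor that acts with Pax6 at the border of the motor neuron and p3 domains, was at -0.06, 0.13 and 0.10 in labelled knockout A, B and C, against 0.05, -0.07 and -0.05 in the wild type. The lowest array labelled knockout lay among the wild-type arrays. The difference was 0.08 (SE 0.07, 95% interval -0.08 to 0.24, adjusted p = 0.842 in limma). It was 0.14 without labelled knockout A and 0.04 without labelled knockout B. Among the 6 measured genes with a promoter window, 9 windows in all, Sp8 was the only one with a match to any of the 3 motifs, and 1 of its windows held all of them. The 30 bases with 2 of the matches are shown, with ACCACCC and CAAGTG in capitals (RefSeq, GRCm38.p6, plus strand, chr12:118847455-118847484).
Sp8 site: caccACCACCCccctaaataCAAGTGagtt
The matches began 100 and 84 bases before the start, and that of TAATTA 188 bases before it. A match is a description of the letters and not evidence of binding.

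The ventral factors that oppose these genes at shared borders were set beside them, with values given for those pairs after they had been seen. Nkx2-2, the partner of Pax6, was at -0.21, -0.08 and 0.08 in the arrays labelled knockout, against 0.10, 0.11 and -0.16 in the wild type (difference -0.09, SE 0.10). Olig2, the partner of Irx3, was at -0.0048, 0.0048 and 0.35 in the arrays labelled knockout, against 0.07, -0.03 and -0.02 in the wild type (difference 0.11, SE 0.10). Its highest array was labelled knockout C, as for Irx3, so that the partners were high on the same array. Nkx6-2, the partner of Dbx1, was at 0.13 (SE 0.05, unadjusted p = 0.0486), and Nkx6-1, the partner of Dbx2, at 0.24 (SE 0.10, unadjusted p = 0.0547), each with adjusted p = 0.812 in limma. The arrays labelled knockout were higher for 7 of the 8 ventral factors measured, against 55.0% of all probe sets, with a median of 0.15. These counts include Nkx2-9 itself, whose value goes against the labels; without it 6 of 7 were higher and the median was 0.13. Of the 8, 3 were higher at an unadjusted p under 0.05, against 3.07% of all probe sets. They were led by Foxa2, a floor plate factor (0.22, SE 0.07), and Foxn4, of the p2 domain (0.17, SE 0.06). The groups did not overlap for 4 of the 8, against 10.9% of all complete probe sets. Opposite signs were seen in the pairs of Pax6 with Nkx2-2 and of Dbx2 with Nkx6-1, and equal signs in those of Irx3 with Olig2 and of Dbx1 with Nkx6-2. No gene of these pairs passed the adjusted threshold.

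Inputs to the same factors were read from further lists. Retinoic acid, which induces several class I genes, was represented by 17 measured genes with a median difference of 0.01, 9 higher and 8 lower. Dhrs3, a retinaldehyde reductase, was at -0.65, -0.25 and -0.32 in the arrays labelled knockout, against 0.54, 0.25 and 0.53 in the wild type. Its difference was -0.85 (SE 0.13, unadjusted p = 0.000435, adjusted p = 0.812 in limma). Rxra, a retinoid receptor, was at 0.25 (SE 0.08, unadjusted p = 0.0217, adjusted p = 0.812 in limma). The Hedgehog pathway had a median of 0.06 over 12 genes, 7 higher and 5 lower, with Gas1, a Hedgehog co-receptor, at -0.22 (SE 0.08) and Disp1, needed for Hedgehog release, at 0.13 (SE 0.06). Groucho corepressors, through which several of these homeodomain factors repress, were 3 higher and 2 lower, with Tle4 at -0.27 (SE 0.07, unadjusted p = 0.00846) and Tle1 at 0.24 (SE 0.14). The 12 neural progenitor markers had a median of -0.01, 5 higher and 7 lower, with Prom1 at 0.36 (SE 0.13) and Notch1 at 0.34 (SE 0.13). Both Prom1 and Notch1 were lowest on wild-type B, at -0.50 and -0.40. No gene of these lists passed the adjusted threshold.

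Relatives of the 8 genes outside the intermediate domains showed no common direction: of 16 measured, 7 were higher and 9 lower, with a median of -0.01. The largest differences were those of Pax2, given above, and of Pax5, a factor of the midbrain-hindbrain border and of some spinal interneurons, which was at -0.38, 0.04 and -0.28 in the arrays labelled knockout, against 0.30, 0.03 and -0.03 in the wild type (difference -0.31, SE 0.13, unadjusted p = 0.0583, adjusted p = 0.812 in limma). Markers of tissues in which Pax3, Pax7 and the Iroquois genes are also made were read as lists. The 10 measured somite and muscle markers had a median of 0.16 in labelled knockout C and between -0.04 and 0.02 on the other arrays. The 6 endothelial markers had a median of 0.80 in labelled knockout C and between -0.11 and 0.11 elsewhere. The array medians of the 7 measured genes of dorsal root ganglion and neural crest lay between -0.13 and 0.10. Single genes of that list spread further on labelled knockout C, with Pou4f1 at -0.57, Ntrk3 at -0.46 and Sox10 at 0.25. On wild-type B these genes stood at -0.17, -0.19 and 0.07. The part of such tissue in the values of the 8 genes was not tested. Posterior Hox genes, which mark position along the length of the cord, had medians of -0.32, -0.05 and -0.10 in labelled knockout A, B and C, against 0.04, 0.26 and 0.10 in the wild type. Of 17 measured, 14 were lower in the arrays labelled knockout and 3 higher, with a median difference of -0.30. There were 7 at an unadjusted p under 0.05, all lower, against 5.57% of all probe sets. The lowest p was that of Hoxb9, at -0.99 (SE 0.12, unadjusted p = 0.000121, adjusted p = 0.812 in limma). None passed the adjusted threshold, and the part of these genes in the differences of the 8 genes was not tested.

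**Figure D4:**
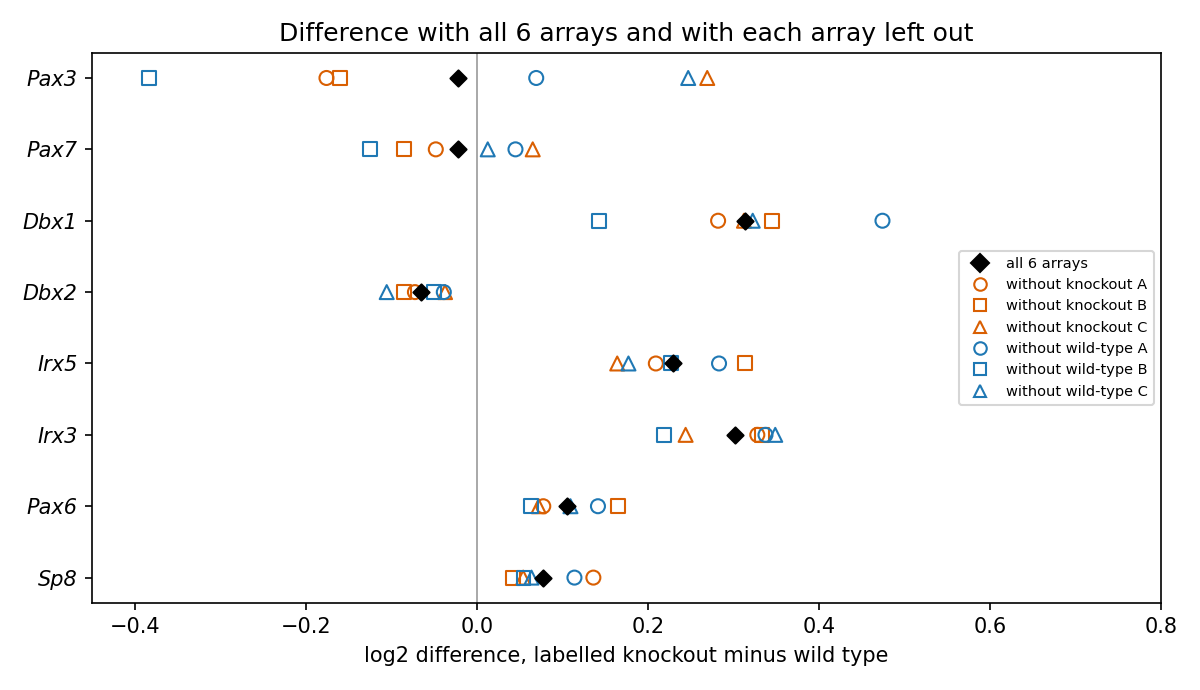
Log2 difference, labelled knockout minus wild type, of each gene with all 6 arrays (black) and with each array left out in turn (open markers). Irx3, Irx5, Dbx1, Pax6 and Sp8 stay above 0 and Dbx2 below it, while Pax3 runs from -0.38 to 0.27 and Pax7 from -0.13 to 0.07.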

How the data were processed

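The authors made the deposited log2 values with RMA (background correction, normalization between arrays, summary per probe set), per the submitters' processing notes; its version is not given in the sources used here, and log base 2 was assumed. Per the labels' protocols, total RNA was amplified into sense-strand cDNA and labelled with biotin. Rows had been centred: each complete probe set had a median of 0 across arrays, within 1e-06; 24 of 28815 probe sets lacked a value in wild-type C, none of them a gene described here. Centred values allowed no filter on dim probes.

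Symbols came from the platform annotation (21780 probe sets with 1 symbol); for genes with several probe sets the one with the most accessions was used. The comparison used limma 3.58.1 (R 4.3.3), fitted on genotype alone, and Benjamini-Hochberg adjustment over all probe sets, tested on simulated data; standard errors and intervals are limma's. Same-letter arrays did not deviate together in every pair (r = 0.165, 0.216 and 0.0159 for A, B and C), so letters were not taken as pairs. Between arrays of different letters r ran from -0.187 to 0.0436, so that A and B lay above that range and C within it. Genes named beside the 8 were the 2 of lowest p in each list. Msx2, Msx3, Gsx1, Gsx2, Gbx2, Ptf1a, Zic1, Zic2, Evx1, En1, Lhx1, the other Iroquois genes and the opposing ventral factors were chosen after their values were seen. So were Pou4f1, Ntrk3 and Sox10. The members and lists were chosen with earlier results of these data known. Plots used matplotlib 3.10.9 (Python 3.11.15).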

Additional observations from a re-analysis of the deposited data

How the results depend on the processing

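The differences were recomputed with quantile normalization, a replicate block by letter, array weights, median centring of arrays, a robust prior, an unequal-variance test, 1 probe set per gene, the 30% least variable probe sets left out, an added term for high Xist, each array left out in turn, and, chosen after seeing the data, without wild-type B and labelled knockout C together. No gene of the 8 passed the adjusted threshold under any of these 16 settings. The count at an unadjusted p under 0.05 was 2 with all arrays. It was 1 with quantile normalization, median centring, array weights, the unequal-variance test and both arrays left out. With single arrays left out it lay between 1 and 3 (1 without labelled knockout A or C or wild-type B or C). It was 2 with the replicate block, but Dbx1 (unadjusted p = 0.0420) was then past that level and Irx5 (unadjusted p = 0.0572) was not. The Xist term left labelled knockout A alone against the wild-type arrays, since the 2 arrays of high Xist were both labelled knockout. No count is therefore given for that term. The share of all probe sets with such a p was 8.86% with the block. With single arrays left out that share lay between 3.39% without wild-type B and 9.96% without labelled knockout B, where the count was 3. Irx3 was past that level in 15 of the 16 settings and Irx5 in 5 (the robust prior, 1 probe set per gene, least variable probe sets left out, and without wild-type A or labelled knockout B). The median difference, 0.09 with all arrays, was 0.20 with the Xist term, 0.031 with wild-type B and labelled knockout C both left out, and 0.059 to 0.143 with single arrays left out, lowest when that array was wild-type B and highest when it was wild-type C. Pax3 turned to 0.095 with array weights and 0.28 with the Xist term and ran from -0.38 to 0.27 with single arrays left out; Pax7 turned to 0.0039 and 0.029 and ran from -0.125 to 0.065, both being above 0 without wild-type A, wild-type C or labelled knockout C. Sp8 turned to -0.040 with the Xist term. The changes with that term are those of labelled knockout A set alone against the wild type. The cause of the other changes was not tested. With centred values, signal over background could not be judged.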
